A study of Homo sapiens with 18 samples.

Results

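The genes described here encode the proteins that build caveolae, and *SDPR* among them had the largest difference between IMR90 cells with and without tert-butyl hydroperoxide (tBHP). They were the 7 rows of a table of 56269 genes whose symbols were *SDPR*, *PTRF*, *PRKCDBP*, *CAV1*, *CAV2*, *EHD2* and *PACSIN2*, and all 7 had enough reads to be tested. IMR90 is a line of human lung fibroblasts. The cells received PBS, 20 μg/ml cNSF-HA or 20 μg/ml fNSF-HA for 6 h as a pre-incubation. HA is hyaluronan, a long sugar polymer of the extracellular matrix, purified here from the medium of naked mole-rat skin fibroblasts (NSF). The control preparation, cNSF-HA, had been mock digested with heat-inactivated hyaluronidase, and fNSF-HA had been partially fragmented with the active enzyme. Cells of each pre-incubation were collected at its end, or were moved to the oxidant tBHP (200 μM, 1 h) and harvested 6 h after its addition. The 6 groups thus had 3 libraries each, and poly(A) RNA was sequenced in 18 libraries. Cells without tBHP were harvested before the others, so the effect of tBHP cannot be told apart from that of the later harvest and the change of medium. No group had a genetic change, and all cells were of 1 line. The study used these groups to ask how HA of different polymer length changes the transcriptome of cells under oxidative stress.

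Caveolae are small flask-shaped pits of the plasma membrane, abundant in fibroblasts, endothelium, muscle and fat. Caveolins (CAV1, CAV2 and the muscle form CAV3) sit in the inner leaflet of the membrane as oligomers, and cavins form a coat around them. PTRF (cavin-1) is required for the coat, SDPR (cavin-2) helps to shape and elongate the membrane, and PRKCDBP (cavin-3) and MURC (cavin-4, the muscle form) join it in some tissues. EHD2 is an ATPase that forms a ring at the neck and holds caveolae at the surface, and PACSIN2 is an F-BAR protein that bends the neck. Caveolae flatten when the membrane is stretched and also gather signaling proteins.

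The depth of the libraries ranged from 20261103 to 26287660 reads on genes. Values are normalized counts, that is, reads scaled by a size factor per library, and changes are differences of log2(normalized count + 1). Replicates spread more after tBHP. On the log2 scale, a gene's median SD within a group was 0.063 to 0.07 in the 3 groups without tBHP and 0.153 to 0.221 in the 3 groups after it. The cells carried the markers of fibroblasts, with 8 of 8 tested and a summed normalized count of 587721 to 609212 without tBHP and of 452105 to 717227 after it. Of the markers of other cells, a mean of at least 10 was reached by 1 of 4 epithelial, 1 of 4 endothelial, 1 of 3 muscle and 0 of 4 blood markers. The epithelial markers summed to 330 to 389 without tBHP and 238 to 471 after it, nearly all from the keratin gene *KRT8* (means 354 and 361), and their part in the results was not tested. Endothelium is also rich in caveolae, and its markers summed to a normalized count of 3.73 to 14.8 without tBHP and 13.1 to 27.2 after it, with *CDH5* at 0. In bulk RNA, fewer cells and less RNA per cell cannot be told apart.

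The genes lie apart from each other, except for the neighbors *CAV2* and *CAV1*. In the GENCODE 29 annotation of GRCh38, *SDPR* (*CAVIN2*) lies at chr2:191834302-191847255 on the minus strand. *CAV1* lies at chr7:116524785-116561184 and *CAV2* at chr7:116287380-116508541, both on the plus strand. *PTRF* (*CAVIN1*) lies at chr17:42402452-42423517, *PRKCDBP* (*CAVIN3*) at chr11:6318946-6320647, *EHD2* at chr19:47713343-47743134 and *PACSIN2* at chr22:42835412-43015145. The promoters of the gene with the largest rise and of the neighboring pair that was lower after tBHP are shown, each as the 250 bases before the RefSeq start (GRCh38.p14) on the strand of the gene. Windows were found for 5 of the 7 genes, and *PTRF* and *PRKCDBP* had no entry. Capitals mark the motifs searched on both strands. These were GGAATG, a core bound by TEAD factors, and GGGCGG, the GC box bound by Sp factors. CCAAT, which NF-Y binds, and CCTGCG were searched too. TGANTCA is the site of AP-1, and TGACNNNGC, which may share bases with it, is the antioxidant response element. The CArG box is bound by SRF.
*SDPR*, chr2:191847089-191847338, minus strand: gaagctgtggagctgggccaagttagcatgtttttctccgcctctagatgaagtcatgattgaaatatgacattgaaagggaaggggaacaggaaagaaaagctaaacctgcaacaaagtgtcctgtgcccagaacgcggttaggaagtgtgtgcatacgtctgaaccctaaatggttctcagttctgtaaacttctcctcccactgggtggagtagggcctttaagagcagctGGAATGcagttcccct
*CAV1*, chr7:116524759-116525008, plus strand: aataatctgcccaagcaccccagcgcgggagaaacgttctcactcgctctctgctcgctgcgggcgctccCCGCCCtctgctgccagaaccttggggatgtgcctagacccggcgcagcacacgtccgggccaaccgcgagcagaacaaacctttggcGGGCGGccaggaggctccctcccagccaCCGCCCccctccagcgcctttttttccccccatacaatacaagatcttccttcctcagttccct
*CAV2*, chr7:116499488-116499737, plus strand: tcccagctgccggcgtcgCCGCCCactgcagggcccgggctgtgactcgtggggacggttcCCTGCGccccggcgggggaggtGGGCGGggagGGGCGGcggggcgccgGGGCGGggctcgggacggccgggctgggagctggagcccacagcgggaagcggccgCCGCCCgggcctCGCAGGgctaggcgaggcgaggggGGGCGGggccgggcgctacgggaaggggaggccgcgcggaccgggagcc

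The *SDPR* window held 1 motif, GGAATG at positions -16 to -11 from the start, and no GC box. The *CAV1* window held 3 GC boxes, and the *CAV2* window held 6 GC boxes and 2 CCTGCG motifs. Among 35093 promoter windows of the same length, 11.9% held GGAATG, 42.6% held GGGCGG and 20.2% held CCTGCG. GC content was 48% in the *SDPR* window, 63.6% in that of *CAV1* and 83.2% in that of *CAV2*, and its median over all windows was 58%. CCAAT was found 3 times in the *PACSIN2* window and in 32% of all windows. TGANTCA (6.57% of all windows), TGACNNNGC (10.9%) and the CArG box (1.16%) were not found in any of the 5 windows. GENCODE places the start of *SDPR* 167 bases and that of *CAV1* 224 bases further upstream, inside the windows, and its first *CAV2* transcript starts 212358 bases upstream.

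*SDPR* transcripts were about 5 times as abundant after tBHP in every pre-incubation. In PBS cells its normalized counts were 162, 174 and 160 without tBHP and 866, 866 and 905 after it. With cNSF-HA they were 157, 177 and 189 without and 800, 801 and 786 with tBHP, and with fNSF-HA 168, 158 and 143 without and 788, 898 and 867 with tBHP. Every one of the 9 libraries after tBHP was thus far above every library without it. The log2 change was 2.40, 2.19 and 2.44 in PBS, cNSF-HA and fNSF-HA cells (SE 0.088 each, n = 3 libraries per group), or 5.28-, 4.55- and 5.42-fold. Ordered from the largest rise, *SDPR* was number 46, 60 and 41 of the 13686 genes tested. The 7 genes were chosen by name as caveola genes, with their tBHP values in these libraries in view, so their tBHP changes are given as a description, with no p. The CV of *SDPR* between replicates was 1.06% to 6.63% after tBHP and 4.72% to 9.18% without it. An antisense gene, AC098617.1, overlaps 233 of the 3229 exon bases of *SDPR*, and the library kit does not mark strand, but that gene had at most 2 reads in a library.

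**Figure D1:**
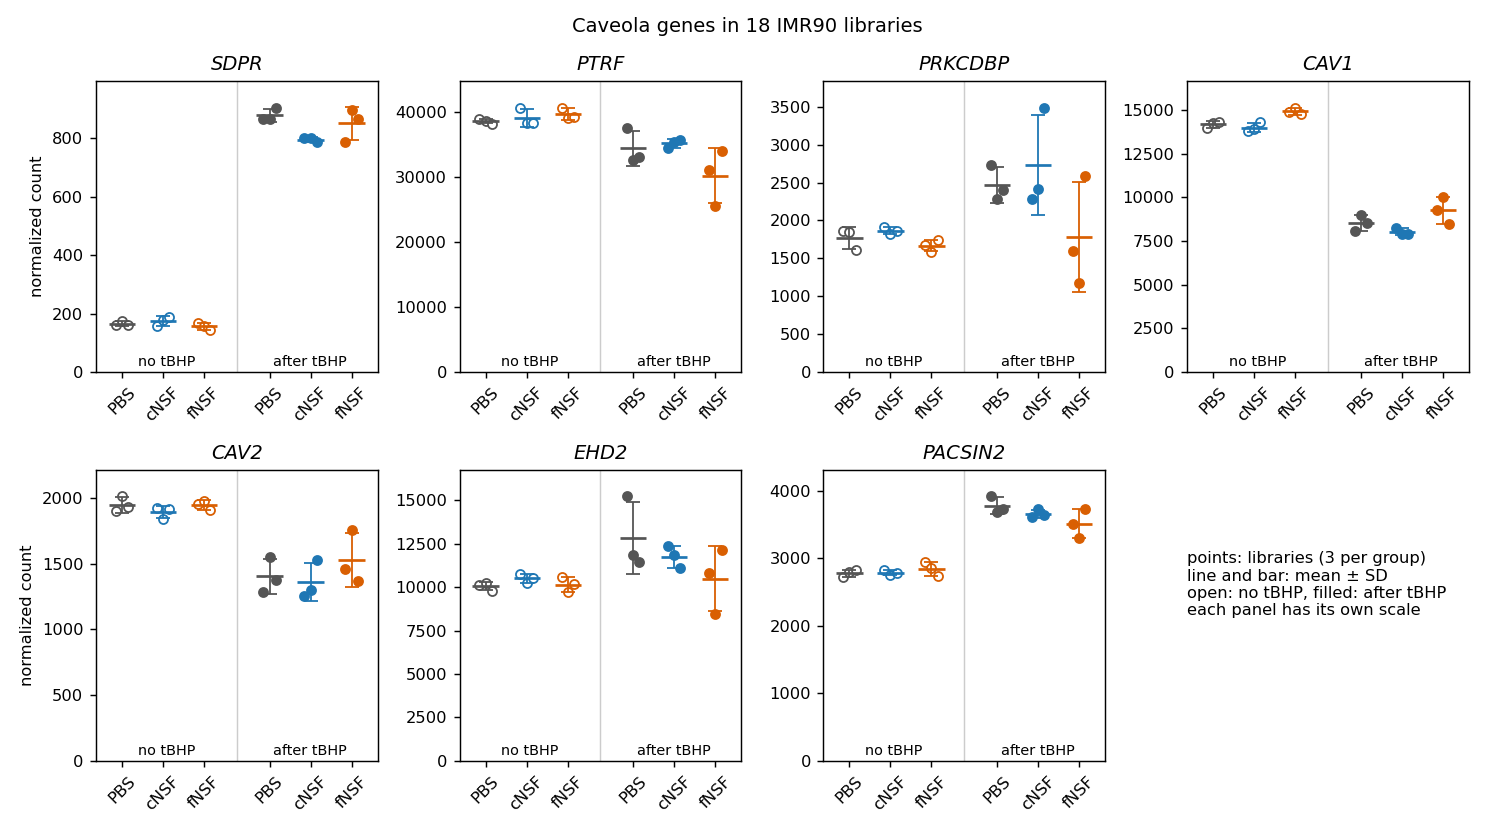
Normalized counts of the 7 caveola genes (y axis, from 0, own scale per panel) in the 3 libraries of each group (x axis). Points are libraries, lines and bars are means ± SD, open points are without tBHP and filled points after it. *SDPR* lies at 143 to 189 in the 9 open points and at 786 to 905 in the 9 filled points, whereas *CAV1* lies lower in all 9 filled points and *PRKCDBP* spreads widely after tBHP.

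Neither of the other cavins among the 7 genes had a change as large as that of *SDPR*. *PTRF*, the essential cavin, was the most abundant of the 7 transcripts and its mean was lower after tBHP. Its normalized counts in PBS cells were 38911, 38668 and 38232 without tBHP and 37510, 32688 and 33124 after it, so that the groups did not overlap. Its log2 difference with tBHP was -0.17, -0.15 and -0.40 in PBS, cNSF-HA and fNSF-HA cells (SE 0.08 each). In fNSF-HA cells after tBHP the counts were 31148, 25612 and 33958, and replicate 2 was the lowest of all 18 libraries.

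*PRKCDBP*, which binds protein kinase C delta, was the most variable of the 7 genes. Its normalized counts in PBS cells were 1857, 1847 and 1606 without tBHP and 2735, 2277 and 2399 after it. With cNSF-HA they were 1915, 1821 and 1865 without and 2284, 2414 and 3489 with tBHP, and with fNSF-HA 1680, 1588 and 1740 without and 1599, 1175 and 2585 with tBHP. The libraries with and without tBHP were thus separate after PBS and after cNSF-HA but overlapped after fNSF-HA. On the log2 scale the difference with tBHP was 0.48, 0.52 and 0.02 in PBS, cNSF-HA and fNSF-HA cells (SE 0.2 each). The value of fNSF-HA cells turned on single libraries, since it was -0.28 without replicate 3 after tBHP and 0.29 without replicate 2. That of cNSF-HA cells was 0.33 without replicate 3 after tBHP, the library at 3489. An antisense gene, AC068733.3, covers 33.3% of the exon bases of *PRKCDBP* and matched no row of the table, so reads of the pair cannot be told apart.

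Both caveolins were lower after tBHP. *CAV1*, the caveolin needed to form caveolae, had normalized counts of 13938, 14273 and 14309 in PBS cells without tBHP and of 8086, 8973 and 8526 after it. With cNSF-HA they were 13770, 13915 and 14280 without and 8249, 7892 and 7922 with tBHP, and with fNSF-HA 14861, 15135 and 14752 without and 9289, 10026 and 8475 with tBHP. The highest library after tBHP was well under the lowest library without it. Its log2 change was -0.73, -0.80 and -0.69 in PBS, cNSF-HA and fNSF-HA cells (SE 0.061 each), and the levels after tBHP were 0.601, 0.573 and 0.62 times those before it.

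*CAV2*, the partner of *CAV1* in mixed oligomers, was also lower after tBHP, by a smaller step. Its normalized counts were 1841 to 2013 in the 9 libraries without tBHP and 1253 to 1757 in the 9 libraries after it, with no overlap. Its log2 change was -0.48, -0.48 and -0.36 in PBS, cNSF-HA and fNSF-HA cells (SE 0.092 each). After tBHP, replicate 2 of fNSF-HA cells was the highest library and replicate 1 of cNSF-HA cells the lowest. Transcripts of other genes overlap 1.1% of the exon bases of *CAV2*.

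Of the neck proteins, *PACSIN2* was higher after tBHP in every pre-incubation. Its normalized counts were 2720, 2792 and 2823 in PBS cells without tBHP and 3920, 3679 and 3738 after it. The log2 change was 0.44, 0.39 and 0.30 in PBS, cNSF-HA and fNSF-HA cells (SE 0.058 each). *PACSIN2* shares 3.4% of its exon bases with *ARFGAP3* on the same strand, which had a normalized count of up to 1962.

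*EHD2* differed between libraries after tBHP. Its normalized counts were 10117, 10258 and 9812 in PBS cells without tBHP and 15243, 11836 and 11466 after it, with replicate 1 far above the other two. With cNSF-HA they were 10738, 10229 and 10556 without and 12355, 11835 and 11102 with tBHP, and with fNSF-HA 10591, 9698 and 10165 without and 10825, 8459 and 12152 with tBHP. Libraries with and without tBHP overlapped after fNSF-HA and were separate after PBS and cNSF-HA. The fitted log2 difference with tBHP was 0.34, 0.16 and 0.03 in PBS, cNSF-HA and fNSF-HA cells (SE 0.11 each), and it was 0.21 in PBS cells without replicate 1 after tBHP. The fNSF-HA value turned on single libraries too, at -0.08 without replicate 3 and 0.18 without replicate 2 after tBHP.

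**Figure D2:**
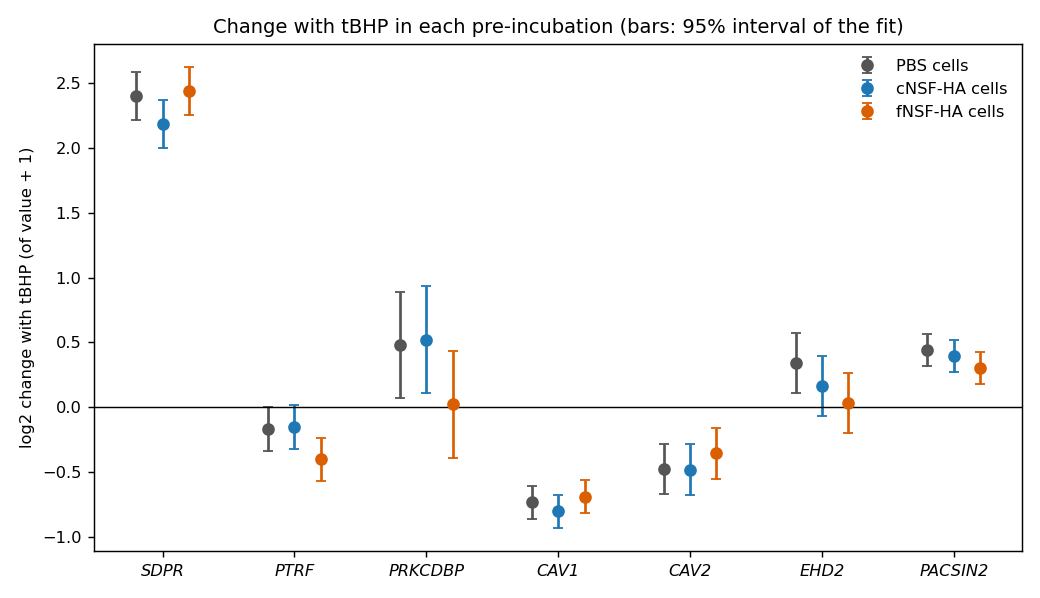
Log2 change of each caveola gene with tBHP (y axis, difference of log2(normalized count + 1)) in PBS, cNSF-HA and fNSF-HA cells. Points are fitted changes and bars their 95% intervals. *SDPR* lies at 2.19 to 2.44, the caveolins lie below 0 and *PACSIN2* above 0 in each pre-incubation, and the intervals of *PRKCDBP* are the widest.

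As a description, with the genes chosen in view of these values, the fit across all genes counted (limma, Benjamini-Hochberg adjusted p under 0.05) 4 of the 7 genes as higher and 2 as lower with tBHP in PBS cells, where 24.2% of all genes tested were higher and 26.9% lower. With cNSF-HA 3 were higher and 2 lower, beside 24.0% and 26.8% of all genes, and with fNSF-HA 2 were higher and 3 lower, beside 19.2% and 22.7%. *SDPR* and *PACSIN2* were higher, and *CAV1* and *CAV2* lower, in each of the 3 pre-incubations. Libraries with and without tBHP did not overlap for 7, 7 and 5 of the 7 genes, and for 63.8%, 63.7% and 48.7% of all genes. The 3 tBHP comparisons have separate control libraries. Leaving out any 1 of the 6 PBS libraries took *PRKCDBP* out of the genes called in PBS cells, and leaving out replicate 1 after tBHP also took out *EHD2* and added *PTRF*. With cNSF-HA, *PRKCDBP* was no longer called without any 1 of the 3 libraries before tBHP or without replicate 3 after it. The trend of each library with GC content and length was also removed, measured against the mean of all 18 libraries. This takes out any part of the tBHP change that follows GC content or length as well. With that trend removed, *PRKCDBP* and *EHD2* were no longer called in PBS cells (0.05 and 0.03) and *PTRF* was called as lower. In cNSF-HA cells *PRKCDBP* was then no longer called (-0.0020) and *PTRF* and *EHD2* were called as lower, beside 57.3%, 56.3% and 55.8% of all genes called in PBS, cNSF-HA and fNSF-HA cells in either direction.

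The make-up of the transcripts of the 3 cavins among the 7 genes differed with tBHP. Of these, *PTRF* was first and *SDPR* last in both states. *MURC* was left out, with mean normalized counts of 381 without and 286 with tBHP in PBS cells. Per kilobase of exon, the normalized count in PBS cells without tBHP was 10084 for *PTRF*, 3472 for *CAV1*, 2565 for *EHD2*, 1058 for *PRKCDBP*, 610 for *PACSIN2*, 281 for *CAV2* and 51.3 for *SDPR*. No neighbors in this order overlapped between libraries. After tBHP the level of *SDPR* per kilobase was 272 ± 7.0 (SD, n = 3) in PBS cells. That of *CAV2* was 202 ± 19 over all its exons, but 425 over its longest transcript, so the order of this pair rests on the length used. *SDPR* made up 0.458% ± 0.019 (SD, n = 3) of the transcripts of the 3 cavins, per length, in PBS cells without tBHP and 2.54% ± 0.22 after it. With cNSF-HA the share was 0.476% and 2.23%, and with fNSF-HA it was 0.424% and 2.92%. The share of *PTRF* was 90.1% ± 0.63 and 83.7% ± 0.26 in PBS cells without and with tBHP. The ratio of *PTRF* to *CAV1* per length was 2.91 ± 0.065 without tBHP and 4.32 ± 0.55 after it, and that of *CAV1* to *CAV2* was 12.4 ± 0.28 and 10.3 ± 0.44. Over the longest transcripts the latter ratio was 7.51 and 6.29.

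Without tBHP, none of the 7 genes passed the threshold in cNSF-HA against fNSF-HA, cNSF-HA against PBS or fNSF-HA against PBS cells (limma, 0 of 7 in each, also with edgeR and DESeq2). Of all genes, 0.0% passed in limma and edgeR in each. DESeq2 called 0.0219% in fNSF-HA against PBS cells and 0.0% in the others. At an unadjusted p under 0.05 there were also 0 of the 7, beside 1.51%, 0.921% and 0.796% of all genes. For *SDPR*, cNSF-HA against fNSF-HA cells differed by 0.16 (95% interval -0.03 to 0.34, limma adjusted p = 1.00), and by 0.10 without replicate 3 of either group. *CAV1* was lower in all 3 cNSF-HA libraries than in all 3 fNSF-HA libraries, by a log2 difference of -0.09 (95% interval -0.22 to 0.04). *PRKCDBP* was higher in the 3 cNSF-HA libraries, by 0.16 (95% interval -0.25 to 0.57). Libraries of these groups did not overlap in 25.0% of all genes. *CAV1* and *PTRF* were higher in all 3 fNSF-HA libraries than in all 3 PBS libraries, by 0.07 (-0.05 to 0.20) and 0.04 (-0.13 to 0.21), beside 14.0% of all genes that did not overlap, and the *PTRF* difference was 0.02 without fNSF-HA replicate 1. In cNSF-HA against PBS cells all 7 genes overlapped, and 15.2% of all genes did not. Fitted on the 6 cNSF-HA and fNSF-HA libraries without tBHP alone, *CAV1* and *PRKCDBP* passed (limma adjusted p = 0.0152 and 0.00879), as did 7.16% of all genes.

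With tBHP, the difference between the HA preparations was largest in *PRKCDBP*, *PTRF* and *CAV1*, but none of the 7 genes passed the threshold (limma, 0 of 7, with 0.0% of all genes). The log2 difference of *PRKCDBP*, cNSF-HA less fNSF-HA, was 0.66 (95% interval 0.25 to 1.07, limma adjusted p = 0.0981), with overlapping libraries. The SD of *PRKCDBP* on the log2 scale was 0.33 and 0.57 in these groups, beside 0.28 pooled over the 6 groups. *PTRF* was 0.23 higher (0.06 to 0.40) and *CAV1* 0.20 lower on the log2 scale (log2 difference -0.20, 95% interval -0.33 to -0.08), each with a limma adjusted p of 0.0981. In *PTRF* and *CAV1* the libraries of the groups did not overlap, as in 13.4% of all genes. These 3 genes had an unadjusted p under 0.05, as had 32.2% of all genes. *SDPR* differed by -0.10 (95% interval -0.28 to 0.09), and by -0.15 and -0.06 without replicate 1 and replicate 2 of fNSF-HA cells.

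DESeq2 on the recovered reads called *CAV1* and *PRKCDBP* (adjusted p = 0.0339 and 0.0464), beside 5.79% of all genes, and edgeR none. The differences turned on single libraries. Without replicate 3 of fNSF-HA cells after tBHP, 5 of the 7 genes passed in limma, with log2 differences of 0.97 for *PRKCDBP*, 0.32 for *PTRF*, 0.30 for *EHD2*, -0.27 for *CAV1* and -0.24 for *CAV2*, and 40.8% of all genes passed as well. Without replicate 2 of the same group none of the 7 passed, and the differences were 0.40 for *PRKCDBP*, 0.11 for *PTRF*, 0.04 for *EHD2*, -0.15 for *CAV1* and -0.06 for *CAV2*.

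Against PBS, neither HA preparation gave a called difference in the 7 genes after tBHP (0 of 7 in each with limma, edgeR and DESeq2). Of all genes, limma called 0.0% for cNSF-HA and 0.139% for fNSF-HA, edgeR 0.0% and 0.263%, and DESeq2 0.0658% and 3.30%. *SDPR* was lower in all 3 cNSF-HA libraries than in all 3 PBS libraries, by a log2 difference of -0.14 (95% interval -0.33 to 0.04, limma adjusted p = 0.644), and 9.57% of all genes did not overlap in this comparison. In fNSF-HA against PBS cells none of the 7 genes separated the libraries, beside 12.0% of all genes, and the largest differences were -0.54 for *PRKCDBP* (-0.95 to -0.13, limma adjusted p = 0.15) and -0.30 for *EHD2* (-0.53 to -0.07, limma adjusted p = 0.153). The number of genes at an unadjusted p under 0.05 was 0 of the 7 for cNSF-HA and 3 for fNSF-HA, beside 8.64% and 22.7% of all genes. Without replicate 3 of fNSF-HA cells after tBHP, *CAV1*, *PTRF*, *PRKCDBP* and *EHD2* passed in fNSF-HA against PBS cells, as did 29.4% of all genes. Without replicate 2 the differences were -0.28 for *PRKCDBP*, -0.15 for *EHD2* and -0.08 for *PTRF*, and that of *EHD2* was -0.17 without replicate 1 of PBS cells after tBHP.

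The size of the tBHP change itself was not shown to depend on the pre-incubation. In the interaction contrasts of limma, none of the 7 genes passed for any pair of pre-incubations, nor in edgeR or DESeq2. Of all genes, limma and edgeR called 0.0% in each, and DESeq2 0.0438% for fNSF-HA against PBS and 0.0% in the others. Between cNSF-HA and fNSF-HA cells the change of *SDPR* differed by -0.25 (95% interval -0.51 to 0.01, limma adjusted p = 0.71), that of *PTRF* by 0.25 (0.01 to 0.49, limma adjusted p = 0.71) and that of *PRKCDBP* by 0.50 (-0.08 to 1.08, limma adjusted p = 0.71). *PTRF* was the only one of the 7 with an unadjusted p under 0.05 in this contrast, beside 3.89% of all genes. The differences of *PTRF* and *PRKCDBP* turned on single libraries of fNSF-HA cells after tBHP, at 0.14 and 0.24 without replicate 2 and 0.34 and 0.80 without replicate 3, and that of *PRKCDBP* was 0.31 without replicate 3 of cNSF-HA cells after tBHP. None of the 7 had one in the contrasts with PBS, beside 4.06% of all genes for cNSF-HA and 6.88% for fNSF-HA.

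The GC content of the transcripts moved with these differences in several libraries after tBHP, most widely in replicate 2 of fNSF-HA cells. It was 67.1% in *PRKCDBP*, 61.6% in *EHD2*, 59.9% in *PTRF*, 53.3% in *PACSIN2*, 46.2% in *CAV1*, 43.2% in *SDPR* and 40.7% in *CAV2*, around a median of 47.9% over 12808 genes. In replicate 2 of fNSF-HA cells after tBHP, *PRKCDBP*, *EHD2* and *PTRF* lay at -0.93, -0.45 and -0.37 from their mean over the 9 libraries after tBHP, on the log2 scale, whereas *CAV2* and *CAV1* lay at 0.30 and 0.22. Over all genes, the 10% with the highest GC lay at -0.79 in that library and the 10% with the lowest at 0.48. In replicate 3 of cNSF-HA cells after tBHP those shares of genes lay at 0.33 and -0.14, with *PRKCDBP* at 0.64 and *PTRF* at 0.11, but *EHD2* at -0.06 and *CAV2* at 0.10. In replicate 1 of PBS cells after tBHP they lay at 0.31 and -0.25, with *EHD2* at 0.40, *PRKCDBP* at 0.29, *PTRF* at 0.18, *CAV1* at -0.09 and *CAV2* at -0.15. In replicate 1 of fNSF-HA cells after tBHP they lay at -0.20 and 0.14, with *PRKCDBP* at -0.48. *SDPR* stayed within -0.10 and 0.11 in all 9 libraries.

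With the GC and length trend of each library removed, the cNSF-HA less fNSF-HA difference after tBHP was 0.05 for *PRKCDBP*, -0.05 for *PTRF*, -0.16 for *EHD2* and -0.13 for *CAV1*. The tBHP change in PBS cells was then 2.57 for *SDPR*, -0.72 for *CAV1*, -0.16 for *CAV2*, -0.46 for *PTRF*, 0.26 for *PACSIN2*, 0.05 for *PRKCDBP* and 0.03 for *EHD2*. In cNSF-HA cells, *EHD2* was then lower with tBHP (-0.16). In PBS cells *SDPR* and *CAV1* thus had similar changes with and without the correction, and those of the other 5 genes moved by over 1.5 times. The trend was measured against the mean of all 18 libraries, so its removal also takes out any part of the tBHP change that follows it. The part of GC content in these differences was not tested.

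**Figure D3:**
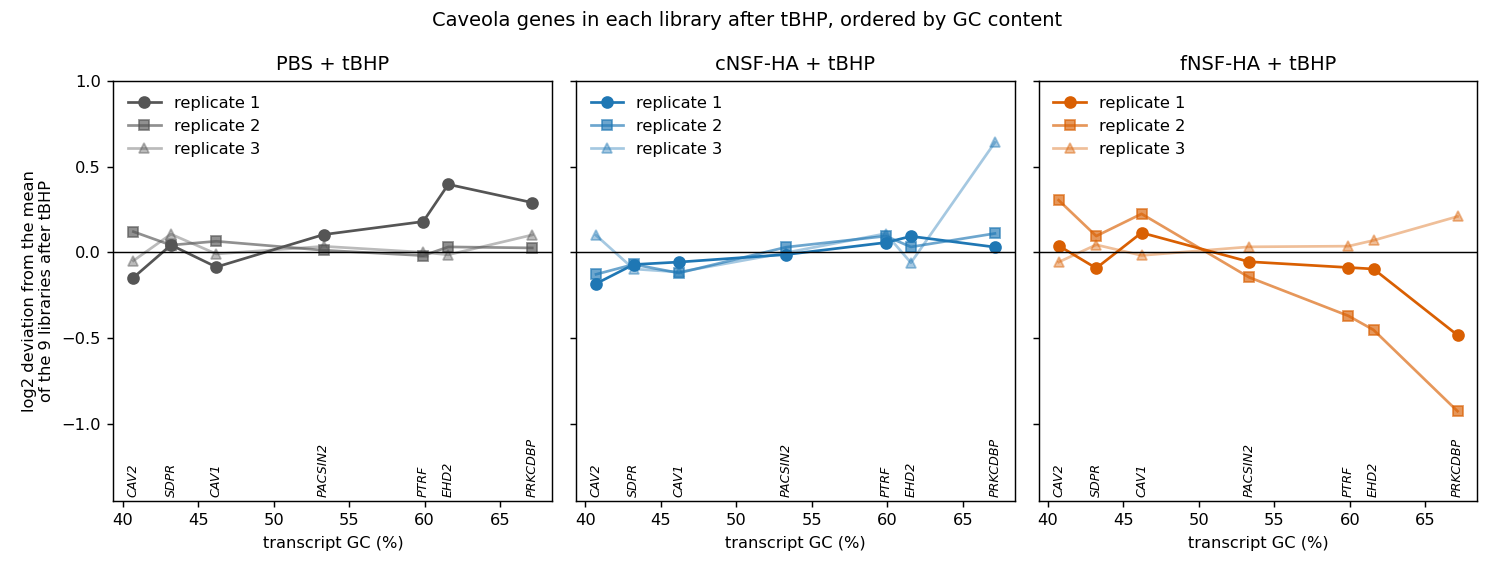
Log2 deviation of each caveola gene from its mean over the 9 libraries after tBHP (y axis) against the GC content of its transcript in percent (x axis), by group and replicate. In fNSF-HA replicate 2 the line runs from 0.30 in *CAV2* to -0.93 in *PRKCDBP*, and in cNSF-HA replicate 3 *PRKCDBP* lies at 0.64.

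The genes whose pattern over the 18 libraries was most like that of *SDPR* included *ATF3* and *HSPB8*. Among 10180 genes with a mean normalized count of at least 100, Pearson's r with *SDPR* on the log2 scale was 0.996 for *ATF3*, a transcription factor of the stress response, and 0.995 for *HSPB8*, a small heat shock protein. It was also 0.995 for *NDRG1*, a gene known to rise in hypoxia, for *WARS*, the tryptophanyl-tRNA synthetase, and for *VLDLR*, a lipoprotein receptor. The mean normalized count of *ATF3* was 37.5 in PBS cells without and 618 with tBHP, and that of *NDRG1* was 924 and 6890. Among the other caveola genes r was 0.962 for *PACSIN2*, 0.505 for *EHD2* and 0.473 for *PRKCDBP*. It was -0.754 for *PTRF*, -0.890 for *CAV2* and -0.970 for *CAV1*. All 18 points share the split by tBHP. An r of at least 0.95 was found for 506 genes and an r of -0.95 or lower for 416. The values thus describe a shared step and carry no p.

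The other genes tied to caveolae changed in both directions with tBHP. Of 23 listed, 18 were tested. In PBS cells 10 were higher and 4 lower (limma, adjusted p under 0.05), with cNSF-HA 7 and 5, and with fNSF-HA 5 and 4, beside the shares of all genes given above. The median log2 change of the 18 genes was 0.30, 0.20 and -0.01 in the 3 pre-incubations, beside 0.00, 0.00 and -0.03 over all genes. *FYN*, *INSR*, *PACSIN3*, *PRKCD* and *SRC* were higher, and *EHD3*, *EHD4* and *ROR1* lower, in each of the 3. None of the 18 passed in any comparison between the pre-incubations or in any interaction, nor with edgeR or DESeq2. At an unadjusted p under 0.05 there were 5 of them in cNSF-HA against fNSF-HA and 7 in fNSF-HA against PBS after tBHP, 1 in the fNSF-HA against PBS interaction and 0 in the others. The shares of all genes in these 3 were 32.2%, 22.7% and 6.88%.

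The largest rises among those that passed in PBS cells were those of *PRKCD*, *FYN* and *PACSIN3*, the last level with *SRC* at 0.81 each. These genes and those of the largest falls were picked by the size of their change, so their p are given as a description. *PRKCD*, protein kinase C delta, had mean normalized counts of 536 ± 42 (SD, n = 3) without and 1188 ± 74 with tBHP in PBS cells, a log2 change of 1.15 (limma adjusted p = 1.04e-08), with 1.17 and 1.16 in cNSF-HA and fNSF-HA cells. *FYN*, a Src-family kinase, had 336 ± 22 and 695 ± 19, a change of 1.05 (limma adjusted p = 2.36e-08), with 1.02 and 1.00 in the HA groups. *PACSIN3*, the form of PACSIN best known from muscle, had 446 ± 18 and 786 ± 64, a change of 0.81 (limma adjusted p = 0.000352). Its change was 0.44 in fNSF-HA cells, where the 3 libraries ranged from 430 to 463 without tBHP and from 438 to 859 after it. *SRC* and *INSR* changed more there (0.61 and 0.55).

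The largest falls among those that passed in PBS cells were those of *ROR1*, *EHD3* and *EHD4*. *ROR1*, a receptor tyrosine kinase that holds caveolin and cavin-1 together, had 270 ± 23 without and 85 ± 13 with tBHP in PBS cells, a log2 change of -1.66 (limma adjusted p = 2.96e-06), and -1.98 and -2.06 in cNSF-HA and fNSF-HA cells. *EHD3* and *EHD4*, paralogs of *EHD2* best known from endosomes, changed by -0.70 and -0.42 in PBS cells (limma adjusted p = 5.16e-06 and 0.000143). *DNM3*, one of the dynamins that sever membrane necks, had 11 to 54 reads in a library and was named after its values were seen. Its log2 change was -0.66, -0.92 and -0.48 in PBS, cNSF-HA and fNSF-HA cells (SE 0.32 each), and only that in cNSF-HA cells passed. Its normalized counts in PBS cells were 19.3, 34.5 and 46.7 without tBHP and 12.5, 22.9 and 26.3 after it, with overlap. The change in cNSF-HA cells differed from that in PBS cells by -0.26 (SE 0.46, limma adjusted p = 0.999). A dependence on HA was thus not shown. *MURC*, the muscle cavin, was detected at 381 ± 19 without and 286 ± 4.0 with tBHP in PBS cells, a log2 change of -0.41 (limma adjusted p = 0.00125), and its values of -0.16 and -0.15 in the HA groups did not pass. The differences from the change in PBS cells were 0.26 for cNSF-HA and 0.27 for fNSF-HA (limma adjusted p = 0.999 and 0.667). After tBHP the fNSF-HA libraries ranged from 290 to 379. *CAV3*, the muscle caveolin, had 3 reads in all 18 libraries, and *PACSIN1* and *PLVAP* had 2 and 1. *NOS3* and *CD36*, also too low to be tested, had at most 9 and 7 reads in a library. The 3 muscle markers summed to 13.4 to 25.1 without tBHP and 19.1 to 38.1 after it, with *DES* at means of 15.5 and 24.9 and *MYOG* at 0.

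**Figure D4:**
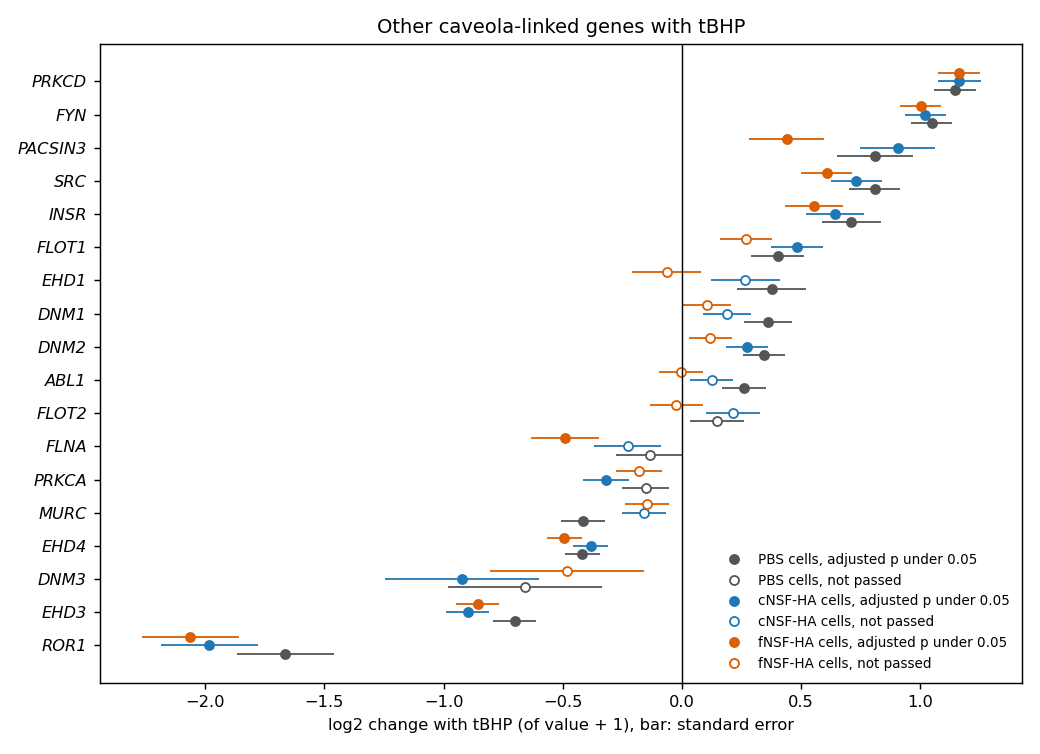
Log2 change with tBHP (x axis) of the 18 caveola-linked genes tested outside the 7 (y axis), in PBS, cNSF-HA and fNSF-HA cells. Filled points passed an adjusted p of 0.05, open points did not, and bars are standard errors. *PRKCD* and *FYN* lie near or above 1 and *ROR1* at -1.66 to -2.06 in each pre-incubation.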

How the data were processed

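The data were RNA-Seq values of 18 IMR90 libraries in 6 groups, taken from the labels. The authors made unstranded TruSeq libraries and sequenced single-end reads of 100 nt. The submitters' processing notes name Trimmomatic 0.32, STAR 2.5.2b, featureCounts of Subread 1.5.0-p3, DESeq2 and GRCh38.p7. The deposited signal of a gene is its read count divided by the DESeq2 size factor of the library, and whole reads were recovered for 100% of the values (tolerance 0.05 reads). The table also holds a p-value, a q-value and a rank of the authors, which were not used.

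Log2 values after a pseudocount of 1 of the 13686 genes with a mean of at least 10 (of 31441 with a read) were fitted with limma 3.58.1 in R 4.3.3 (trend on the mean, a coefficient for each group, two-sided), with Benjamini-Hochberg adjustment over all genes at 0.05. The 6 groups shared 1 estimate of the spread of each gene. The study calls the replicates biological. Alternatives were other pseudocounts and filters, quantile normalization, edgeR 4.0.16 (quasi-likelihood), DESeq2 1.42.0, the compared groups alone, the replicate number as a block, removal of the trend with GC and length (natural splines, 5 degrees of freedom), and leaving out each library. The script was tested on simulated data. All 7 caveola genes were named in every comparison, and of the other caveola-linked genes *CAV3*, *MURC* and the 3 largest rises and falls past the threshold in PBS cells. *DNM3*, *PACSIN1*, *PLVAP*, *NOS3*, *CD36*, *MYOG*, *DES*, *KRT8*, *CDH5* and the genes that passed in all 3 pre-incubations were named after their values were seen. The genes and lists were chosen with earlier results of these data known. Chi-square per degree of freedom between replicate counts was 1.48 to 2.69 without tBHP and 2.86 to 71.2 after it, so replicate spread limits precision.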

Additional observations from a re-analysis of the deposited data

How the results depend on the processing

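The rise of *SDPR* with tBHP kept its direction under all alternatives, with values of 2.57 (PBS) and 2.33 (cNSF-HA) when the trend with GC and length was removed, and of 2.38 to 2.44, 2.11 to 2.25 and 2.38 to 2.49 in PBS, cNSF-HA and fNSF-HA cells when single libraries were left out. *PRKCDBP* in cNSF-HA cells went from 0.52 to -0.0020 with that trend removed. Removing the trend within each tBHP state, an alternative chosen after seeing the data, gave 15 caveola-linked genes called in fNSF-HA cells in place of 9, and 61.6% of all genes in place of 41.9%. The caveola genes called in cNSF-HA against fNSF-HA cells were 2 in place of 0 after tBHP with DESeq2, 2 in place of 0 without tBHP when only these groups were fitted, and 0 to 5 after tBHP when single libraries were left out. In fNSF-HA against PBS cells after tBHP they were 0 to 4. With single libraries left out, 5 (PBS), 4 to 5 (cNSF-HA) and 5 (fNSF-HA) of the 7 were called with tBHP, and the caveola-linked genes called were 12 to 14, 11 to 12 and 8 to 13, beside 43.7% to 49.2%, 43.3% to 48.0% and 34.9% to 50.6% of all genes. Same-numbered replicates correlated at -0.119 to 0.333 in their deviations from the group means, so the numbers were not taken to pair the samples, and with the replicate block the log2 change of *SDPR* in PBS cells was 2.40 and no count of caveola or caveola-linked genes moved by over 1.5 times, while 61 of all genes in place of 19 were called in fNSF-HA against PBS cells after tBHP. Of 1503 other values, 1408 were taken as the same, 94 as moved and 1 changed sign after a call. A log2 difference was taken as moved when it shifted by at least the replicate spread. A count of genes called was taken as moved when it shifted by over 1.5 times, or to or from 0. *CAV3*, *PACSIN1*, *PLVAP*, *NOS3* and *CD36* were too low to be tested at this depth, and depth was not told apart from a lack of expression. The causes of these shifts were not tested.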
